A study of Mus musculus with 12 samples.

Results

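Matrix metalloproteinases (MMPs), ADAMTS proteases and the tissue inhibitors of metalloproteinases (TIMPs) were followed in primary mouse hepatocytes treated with transforming growth factor-β1 (TGF-β1). Members were chosen by name alone, as every probe set of the array that the platform's probe table pairs with exactly 1 symbol of the form Mmp, Adamts or Timp followed by a number and at most 1 letter. This gave 44 genes, 22 Mmp, 18 Adamts and 4 Timp, out of 19938 genes measured in the same way, and they were read by 68 of 21789 tested probe sets. Mmp15 and Adamts2 had no such probe set and were not analysed here. The cells came from male C57BL/6 mice by collagenase digestion of the liver, were kept on collagen in HepatoZYME-SFM, and received 1 ng/ml recombinant human TGF-β1. The untreated control, 20 min, 2 h and 4 h groups had 3 arrays each, numbered as replicates 1 to 3, 12 Affymetrix Mouse Gene 1.0 ST arrays in all. All 4 groups shared strain, sex, isolation and medium, no genetic modification is named for any of them, and the control was a single untreated group, so time in fresh medium and time with TGF-β1 cannot be told apart. The study calls the 3 replicates of all its cell types biological, whereas the labels give only their numbers. Whether a replicate was 1 animal, a pool or a separate cell preparation is not given in the sources used here. In the analysis reported, p-values rest on the spread between these samples that is left after time and replicate number are fitted.

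MMPs and ADAMTS proteases are zinc-dependent endopeptidases that cut proteins of the extracellular matrix, and most are made as inactive proenzymes. MMPs as a family cleave collagens, gelatin, laminin and many cell surface proteins, whereas ADAMTS enzymes cleave proteoglycans, trim procollagens or process von Willebrand factor and microfibril proteins. TIMPs bind the active site of MMPs and block it. In liver fibrosis the balance of proteases and TIMPs is studied mostly in stellate cells and macrophages, with TGF-β as a main fibrogenic signal.

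The deposited values are log2 signals, so 1 unit is a 2-fold difference. Each later time was compared with the control in limma, which fits 1 linear model per probe set and moderates its variance across probe sets. Time and replicate number were the factors of the model, and a probe set was called at a Benjamini-Hochberg adjusted p under 0.05 over all tested probe sets. The cells carried the signal of hepatocytes and of a TGF-β1 response: the means over the 8 hepatocyte markers lay between 13.75 and 14.02 on the 12 arrays, and the TGF-β target Pmepa1 rose by 2.78 ± 0.23 (SE) at 4 h (limma, adjusted p = 0.000685). Replicate 1 stood apart from replicates 2 and 3 at every time: 34.8% of all probe sets differed between replicates (limma F test, adjusted p), and 25.1% had all 4 values of replicate 1 outside the range of the other 8 arrays. The arrays give no detection call and 3 arrays per group limit the precision, so a low signal is not read here as absence. Probe sets differ in affinity, so the rank of a signal among all probe sets describes the array and not the amount of mRNA.

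Within 4 h of TGF-β1, 1 protease gene of 40 passed the test and none of the 4 inhibitors did. Of the 68 probe sets, 1 was called at 4 h, the collagenase Mmp8, which fell, and 0 rose. Among all tested probe sets 4.59% were called at 4 h, 1.57% higher and 3.02% lower. The median log2 change of the 68 was 0.03 at 4 h, beside 0.02 over all tested probe sets, and 61 of the 68 changed by less than 0.2. At 20 min and at 2 h limma called 0 members, with 0% of all probe sets called at 20 min and 0% at 2 h. At an unadjusted p under 0.05 there were 4 members at 20 min, 9 at 2 h and 9 at 4 h, against 8.46%, 6.28% and 17.0% of all probe sets. Between 2 h and 4 h limma called 0 members and 0.0780% of all probe sets, and 2 members and 8.83% of all had an unadjusted p under 0.05. The F test over the 3 later times called 0 members and 1.40% of all, and 7 members and 12.1% of all had an unadjusted p under 0.05. At an adjusted p under 0.01 with at least a 2-fold change, 0 members and 0.0964% of all passed at 4 h. The control and 4 h arrays did not overlap for 8 of 68 members and for 11.0% of all probe sets. Each of these shares of members was near that of all probe sets or below it, apart from the unadjusted count at 2 h, which was above it. Of the 9 members at 2 h, 3 were higher and 6 lower.

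Changes of more than 2-fold in array signal lay outside the intervals of all members. The 95% confidence interval of the change lay inside 2-fold in either direction for 68 of 68 probe sets at 20 min, 68 at 2 h and 68 at 4 h. At 4 h these intervals, read together, ran from -0.55 to 0.46 on the log2 scale. Array background compresses changes of dim probe sets, and only 11 of the 68 had a control mean at or above the median of all tested probe sets, so the bounds hold for the array signal and not for the amount of mRNA. The 8 genes whose representative probe set was at or above that median were Mmp14, Mmp19, Adamts1, Adamts3, Adamts7, Adamts9, Adamts17 and Timp1.

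**Figure D1:**
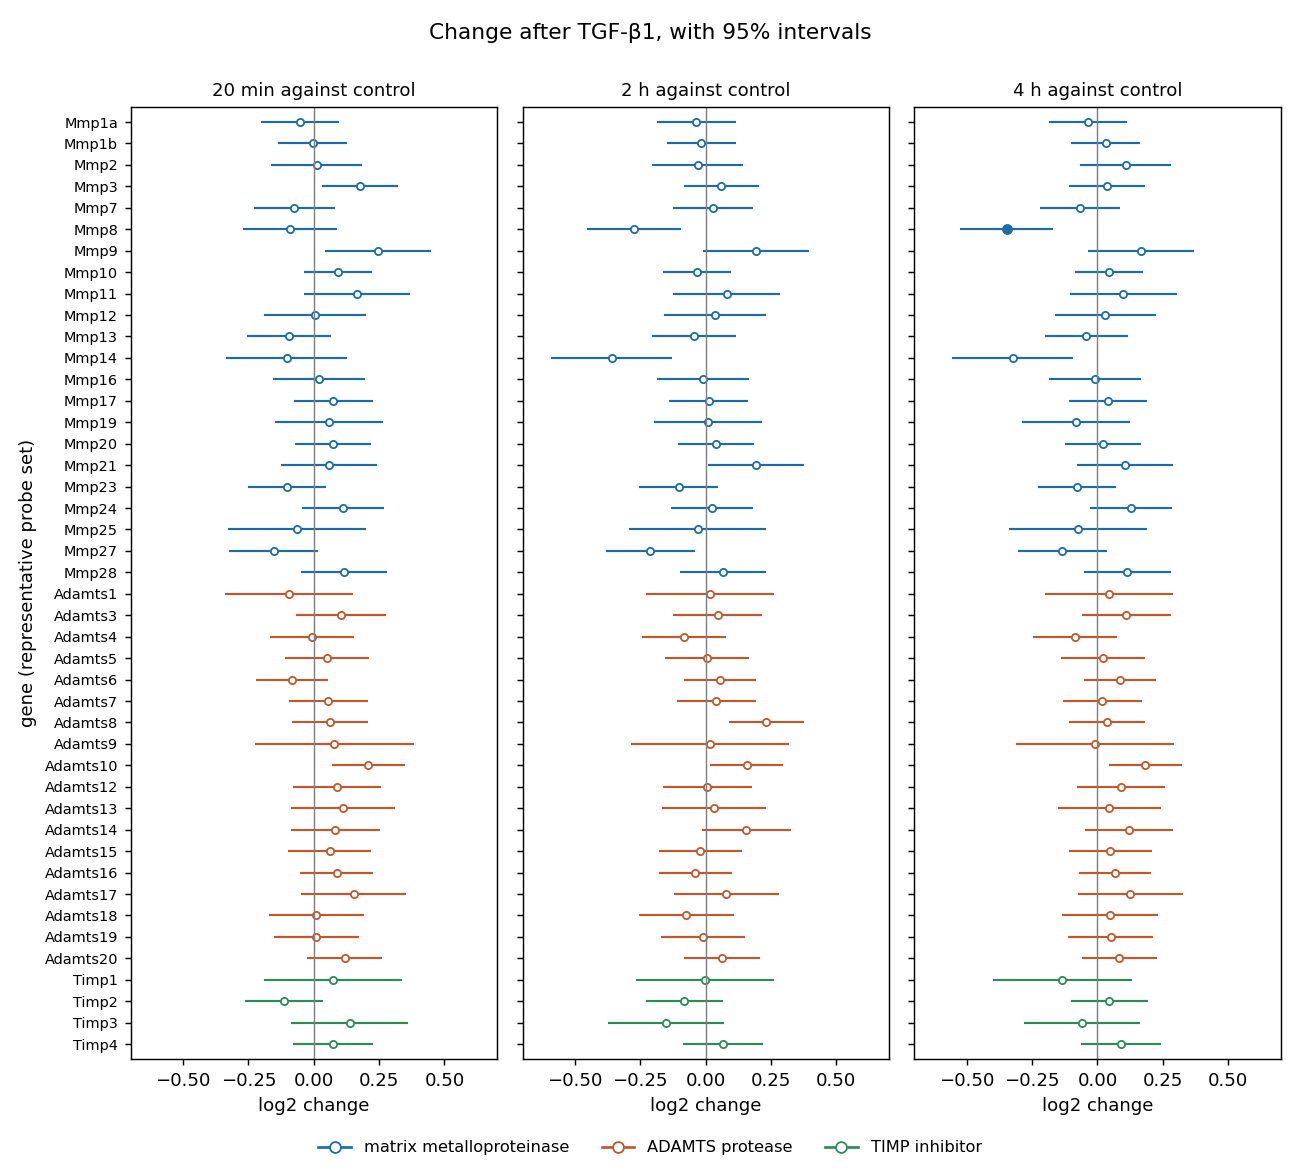
Log2 change of each of the 44 genes (1 representative probe set per gene, named on the vertical axis) at 20 min, 2 h and 4 h against the untreated control, on a horizontal axis in log2 units. Points are limma estimates over 3 replicates, lines are 95% confidence intervals, and the filled point is the only call, Mmp8 at 4 h (-0.35).

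Mmp8, the neutrophil collagenase that cuts fibrillar collagen, lies on chromosome 9, 7558429 to 7568486 (GRCm38.p6). Its control arrays read 6.07, 6.14 and 5.93 in replicates 1 to 3. The 20 min arrays read 6.17, 5.85 and 5.86, the 2 h arrays 5.81, 5.85 and 5.66 and the 4 h arrays 5.72, 5.66 and 5.73. All 3 arrays at 2 h and all 3 at 4 h lay below the lowest control array, while the 20 min arrays overlapped the control. The mean went from 6.05 ± 0.11 (SD, n = 3) to 5.70 ± 0.04 (SD, n = 3), a log2 change of -0.35 ± 0.08 (SE), which is 1.27-fold lower (limma, adjusted p = 0.035). At 2 h the change was -0.27 ± 0.08 and was not called (limma, adjusted p = 0.443). The signal was low, at the 28.5th percentile of control means.

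The call on Mmp8 was at the edge of the threshold: it passed in 9 of 24 other analyses, with changes from -0.42 to -0.28 and adjusted p from 0.016 to 0.35. Leaving out any control array, any 4 h array, replicate 3 at 20 min or replicate 3 at 2 h ended it (limma, adjusted p from 0.0533 to 0.145). So did the fit without the replicate factor (limma, adjusted p = 0.350) and the test over all probe sets of the table (limma, adjusted p = 0.0953). Of the 7 neutrophil markers, whose means lay between 5.87 and 6.09 on all 12 arrays, 0 were called at 4 h and 0 had a control mean above the median of all probe sets. Of the 11 Kupffer cell or macrophage markers, 5 fell at 4 h, beside 3.02% of all probe sets, among them Csf1r by 0.57, Lyz2 by 0.82 and C1qb by 0.74 on the log2 scale (limma, adjusted p = 0.002, 0.0141 and 0.0118). The mean over that list was 7.60 to 7.71 on the control arrays and 7.27 to 7.32 at 4 h, with Clec4f, a defining Kupffer cell gene, at 6.41 and 6.48. Its part in the fall of Mmp8 was not tested, and in bulk RNA fewer cells of a type and less RNA per cell cannot be told apart.

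The start of Mmp8 is shown because it is the only member that was called. The window holds 250 bases before the RefSeq start and 50 from it, on the plus strand, chr9:7558179-7558478 (GRCm38.p6), and would carry in capitals any match to the AP-1 motif TGANTCA, of which it has none.
Mmp8: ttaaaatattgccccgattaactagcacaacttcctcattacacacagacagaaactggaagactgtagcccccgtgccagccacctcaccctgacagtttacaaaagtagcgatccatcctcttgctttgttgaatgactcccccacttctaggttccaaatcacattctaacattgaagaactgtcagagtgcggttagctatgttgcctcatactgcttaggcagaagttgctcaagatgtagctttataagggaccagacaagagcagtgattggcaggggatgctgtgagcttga

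Mmp8 sits in a row of 10 measured Mmp genes between positions 7272514 and 7699585 of chromosome 9. The others include the collagenases Mmp1a and Mmp13, the collagenase relative Mmp1b, the stromelysins Mmp3 and Mmp10 and the matrilysin Mmp7. The macrophage elastase Mmp12, the enamelysin Mmp20, and Mmp27 complete the row. AP-1 sites near the start of MMP genes are a textbook route to their induction by growth factors and cytokines. Windows of 250 bases before to 50 after the start were found in the RefSeq table for 30 of the 44 genes (33 windows). The AP-1 motif TGANTCA, searched on both strands (it reads alike on both), was in 8 of the 33, and in 7.81% of all 32851 windows. All 8 belong to this row, and Mmp8 and Mmp27 are the genes of the row without it. The sites are shown with 14 bases on each side, 5′ to 3′ on the gene's strand, with the motif in capitals.
Mmp13, chr9:7272465-7272499 (plus strand): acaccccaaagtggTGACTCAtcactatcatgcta
Mmp12, chr9:7347316-7347350 (plus strand): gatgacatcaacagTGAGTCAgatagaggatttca
Mmp1b, chr9:7388099-7388133 (minus strand): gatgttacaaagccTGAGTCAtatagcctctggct
Mmp3, chr9:7445762-7445796 (plus strand): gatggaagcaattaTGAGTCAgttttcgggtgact
Mmp1a, chr9:7464054-7464088 (plus strand): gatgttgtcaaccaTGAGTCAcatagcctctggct
Mmp10, chr9:7502265-7502299 (plus strand): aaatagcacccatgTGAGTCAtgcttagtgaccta
Mmp20, chr9:7628122-7628156 (plus strand): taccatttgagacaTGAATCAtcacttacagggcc
Mmp7, chr9:7692013-7692047 (plus strand): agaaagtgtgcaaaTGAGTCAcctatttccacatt

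The 8 genes whose window holds the motif changed by -0.07 (Mmp7) to 0.04 (Mmp10) at 4 h, and 0 of the 8 were called (limma, adjusted p of at least 0.716). Mmp3 was 5.31, 5.33 and 5.33 on the control arrays and 5.66, 5.40 and 5.44 at 20 min, higher in all 3 replicates at 20 min by 0.18 ± 0.07 but not past the threshold (limma, adjusted p = 0.504). By 4 h it was 5.43, 5.30 and 5.34, which overlapped the control. Mmp1b, a mouse relative of the interstitial collagenase, stayed between 4.76 and 4.97 on the 12 arrays. Mmp27 was lower in 3 of 3 replicates at 4 h, from 6.45, 6.14 and 6.19 to 6.31, 6.03 and 6.03, a change of -0.13 ± 0.08 with overlapping groups (limma, adjusted p = 0.43). The TGF-β inhibitory element GNNTTGGTGA and the SMAD palindrome GTCTAGAC, each searched on both strands, were in 0 of the 33 windows, against 1.005% and 0.213% of all windows. Both motifs are too rare for 33 windows to show whether these genes lack them. A motif match is a string of letters in this window and was not tested as a binding site.

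Mmp14, the membrane-anchored protease that activates the Mmp2 proenzyme together with Timp2, was lower at 2 h and 4 h in each replicate but was not called. It lies on chromosome 14, 54431598 to 54442456. The control arrays read 9.47, 10.02 and 9.93, the 20 min arrays 9.65, 9.80 and 9.65, the 2 h arrays 9.05, 9.86 and 9.43 and the 4 h arrays 9.13, 9.76 and 9.55. The control and 4 h groups overlapped. At 2 h the change was -0.36 ± 0.11, and after 4 h it was -0.32 ± 0.11 (limma, adjusted p = 0.44 and 0.12), with a 95% interval of -0.55 to -0.09 at 4 h. The 4 h change passed in 2 of 25 other analyses, with array weights and without replicate 1 at 20 min (limma, adjusted p = 0.0305 and 0.0280). In the rest it did not pass, with adjusted p up to 0.996 in the fit without the replicate factor (limma). Its partner Mmp2, a gelatinase, changed by 0.11 ± 0.08 at 4 h (limma, adjusted p = 0.561). The other measured membrane-bound members are Mmp16, Mmp17, Mmp23, Mmp24 and Mmp25. Of these Mmp24 changed most, by 0.13 ± 0.07 (limma, adjusted p = 0.418), and 0 were called.

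None of the other secreted MMPs passed the test at any time. The gelatinase Mmp9 read 6.25, 6.19 and 6.45 on the control arrays, 6.69, 6.48 and 6.46 at 20 min and 6.65, 6.27 and 6.47 at 4 h. It was higher in 3 of 3 replicates at both times, and the groups overlapped at 4 h but not at 20 min. At 20 min the change was 0.24 ± 0.09, and after 4 h it was 0.17 ± 0.09 (limma, adjusted p = 0.514 and 0.414). Mmp19, whose control mean of 8.07 ± 0.05 (SD, n = 3) was above the median of all probe sets, changed by -0.08 ± 0.09 at 4 h (limma, adjusted p = 0.744). The epilysin Mmp28 changed by 0.11 ± 0.08 (limma, adjusted p = 0.498). Mmp11, a stromelysin that furin activates inside the cell, went from 6.56, 6.68 and 6.70 to 7.01, 6.56 and 6.66: replicate 1 was higher at 4 h and replicates 2 and 3 were lower. Mmp21 changed by 0.19 ± 0.08 in 2 h and by 0.10 ± 0.08 in 4 h (limma, adjusted p = 0.767 and 0.6).

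Of the 18 ADAMTS genes, 0 were called at any time, beside 0% of all probe sets at 20 min and 2 h and 4.59% at 4 h. A count of 0 in so short a list does not set it apart. In their representative probe sets 16 of the 18 genes had a change above 0 at 4 h, beside 56.9% of all genes. The median was 0.05, against 0.02 over all genes. The count above 0 was 17 after another quantile normalization (59.41% of all genes). With each array centred on its median it was 16 (56.11%). Without replicate 1, 2 and 3 it was 13, 14 and 13, beside 49.69%, 55.7% and 57.87% of all genes. At 4 h, 2 of the 18 were higher in 3 of 3 replicates and 0 were lower in 3 of 3. Over all genes, 3607 of 19938 were higher and 3513 lower in 3 of 3. With every probe set counted, 29 of 42 were above 0. Adamts10, which acts on fibrillin microfibrils, gave the largest change at 4 h among the 18 representative probe sets. It read 6.83, 6.88 and 7.00 in the control, 7.10, 7.09 and 7.15 at 20 min, 7.06, 7.06 and 7.06 at 2 h and 7.16, 7.06 and 7.04 at 4 h. All 9 treated arrays lay above all 3 control arrays. The changes were 0.21 ± 0.06, 0.16 ± 0.06 and 0.18 ± 0.06 (limma, adjusted p = 0.433, 0.719 and 0.149), so none of the 3 passed.

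The 7 proteoglycan-cleaving ADAMTS genes, which cut aggrecan or versican, changed by -0.08 (Adamts4) to 0.08 (Adamts20) at 4 h. Adamts8 changed by 0.23 ± 0.07 in 2 h and by 0.04 ± 0.07 in 4 h (limma, adjusted p = 0.413 and 0.849). Adamts5, one of the main aggrecanases of cartilage, stayed between 5.07 and 5.32 on the 12 arrays. Its neighbour on chromosome 16, Adamts1, was 9.45 ± 0.43 (SD, n = 3) in the control and 9.50 ± 0.06 (SD, n = 3) at 4 h. These means hide a split: Adamts1 changed by -0.39 in replicate 1 and by 0.28 and 0.24 in replicates 2 and 3. The measured procollagen N-propeptidases were not called: Adamts14 changed by 0.12 ± 0.08 and the representative probe set of Adamts3 by 0.11 ± 0.08 (limma, adjusted p = 0.489 and 0.54). Adamts13, which cleaves von Willebrand factor and is made in the liver by stellate cells, changed by 0.05 ± 0.09, and Adamts7, which cleaves cartilage oligomeric matrix protein, by 0.02 ± 0.07 (limma, adjusted p = 0.868 and 0.937). Adamts6, Adamts12, Adamts16, Adamts18 and Adamts19 lay between 0.05 and 0.09.

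Of the ADAMTS genes, 3 were read by several probe sets, whose estimates at 4 h lay on both sides of 0. The differences between probe sets of a gene were not tested. Adamts9, on chromosome 6, 92772699 to 92944450, had 6 probe sets with control means from 5.48 to 7.88. The representative one changed by -0.01 ± 0.14 at 4 h. Probe set 10546434 read 7.33, 7.08 and 6.93 in the control and 6.96, 6.70 and 6.84 at 4 h, lower in 3 of 3 replicates with overlapping groups, a change of -0.28 ± 0.07 that just missed the threshold (limma, adjusted p = 0.0508). Probe sets 10546450 and 10546454 were also lower in 3 of 3 replicates, with changes of -0.27 ± 0.09 and -0.23 ± 0.07, while 10546452 changed by 0.19 ± 0.12 (limma, adjusted p = 0.112, 0.0975 and 0.506). Probe set 10546434 passed without replicate 1 at 20 min and without replicate 3 at 4 h. Adamts3, with 16 probe sets, spanned changes from -0.13 to 0.27, 10 of them above 0. Its probe set 10531166 went from 6.67, 6.71 and 6.81 to 7.13, 6.96 and 6.92, with no overlap, by 0.27 ± 0.07 and was not called (limma, adjusted p = 0.0647). The 5 probe sets of Adamts17, a relative of Adamts10, ran from -0.11 to 0.15, with 0.13 in the representative one. Which transcript or exon each probe set reads is not given in the table used here.

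**Figure D2:**
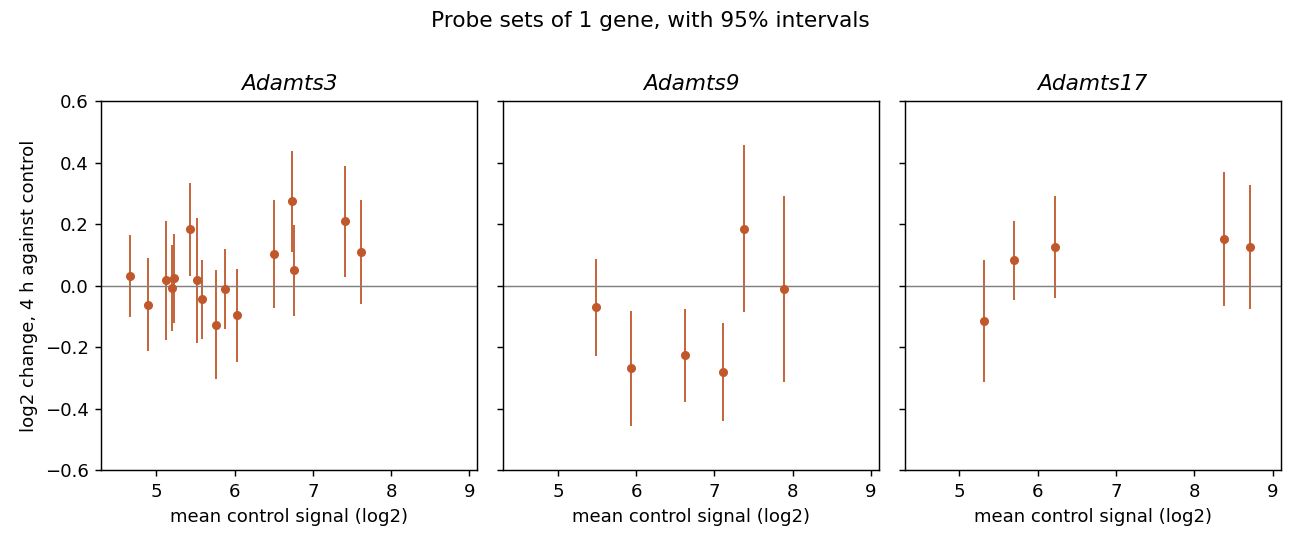
Log2 change at 4 h against the control (vertical axis) over the mean control signal (horizontal axis, log2) for each probe set of Adamts3 (16), Adamts9 (6) and Adamts17 (5). Points are limma estimates over 3 replicates and lines 95% confidence intervals; probe sets of 1 gene lie on both sides of 0 for all 3 genes.

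None of the inhibitors was called at any time. Timp1, the inducible TIMP of fibrotic liver, on chromosome X, 20870166 to 20874737, read 6.50, 7.69 and 7.89 in the control, 6.99, 7.70 and 7.62 at 20 min, 6.73, 7.77 and 7.58 at 2 h and 6.52, 7.74 and 7.42 at 4 h. The 4 arrays of replicate 1 lay below the other 8 at all times, and the change at 4 h was -0.14 ± 0.12 with a 95% interval of -0.40 to 0.13 (limma, adjusted p = 0.65). Timp2, which also helps Mmp14 to activate Mmp2, read 6.42, 6.26 and 6.34 in the control and 6.44, 6.31 and 6.42 at 4 h. Its change was 0.05 ± 0.07, with an interval of -0.10 to 0.19 (limma, adjusted p = 0.811). Timp3, the matrix-bound inhibitor that also acts on ADAMTS and ADAM enzymes, read 6.49, 6.36 and 6.56 and 6.61, 6.39 and 6.24 in the same groups, which overlapped. It changed by -0.06 ± 0.10, with an interval of -0.28 to 0.16 (limma, adjusted p = 0.842). Timp4 read 5.91, 5.92 and 5.91 in the control and 6.15, 5.93 and 5.93 at 4 h, where all 3 arrays lay just above the 3 controls. The change was 0.09 ± 0.07, with an interval of -0.06 to 0.24 (limma, adjusted p = 0.594). The median change at 4 h was -0.01 over the 4 inhibitors and 0.04 over the 40 protease genes.

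In 5 genes, Timp1, Adamts9, Mmp25, Mmp14 and Adamts1, the replicate means of the representative probe set spread over more than 0.5 on the log2 scale, and no member's time means did. By the F test over replicates, which was added after the values had been seen, 11 of 68 probe sets (16.2%) in 9 genes differed, beside 34.8% of all probe sets, and the difference of the shares was not tested. Timp1 had replicate means of 6.69, 7.72 and 7.63, a range of 1.04 against a range of 0.21 between its 4 time means (limma, adjusted p = 2.21e-05). Mmp25, a membrane protease of leukocytes, was also low in replicate 1, with 6.65, 7.09 and 7.21 (limma, adjusted p = 0.00242). In the opposite direction, Adamts1 had 9.76, 9.32 and 9.26 (limma, adjusted p = 0.00241). The representative probe set of Adamts9 had 8.35, 7.70 and 7.67 (limma, adjusted p = 0.00113). Mmp14 (9.32, 9.86 and 9.64), Adamts4, Mmp23, Mmp27 and 1 probe set of Adamts3 complete the 9 genes. All 4 arrays of replicate 1 lay outside the range of the other 8 for 7 of 68 members, beside 25.1% of all probe sets. Without replicate 1, the test between replicates 2 and 3 called 0 members and 0 of all probe sets.

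**Figure D3:**
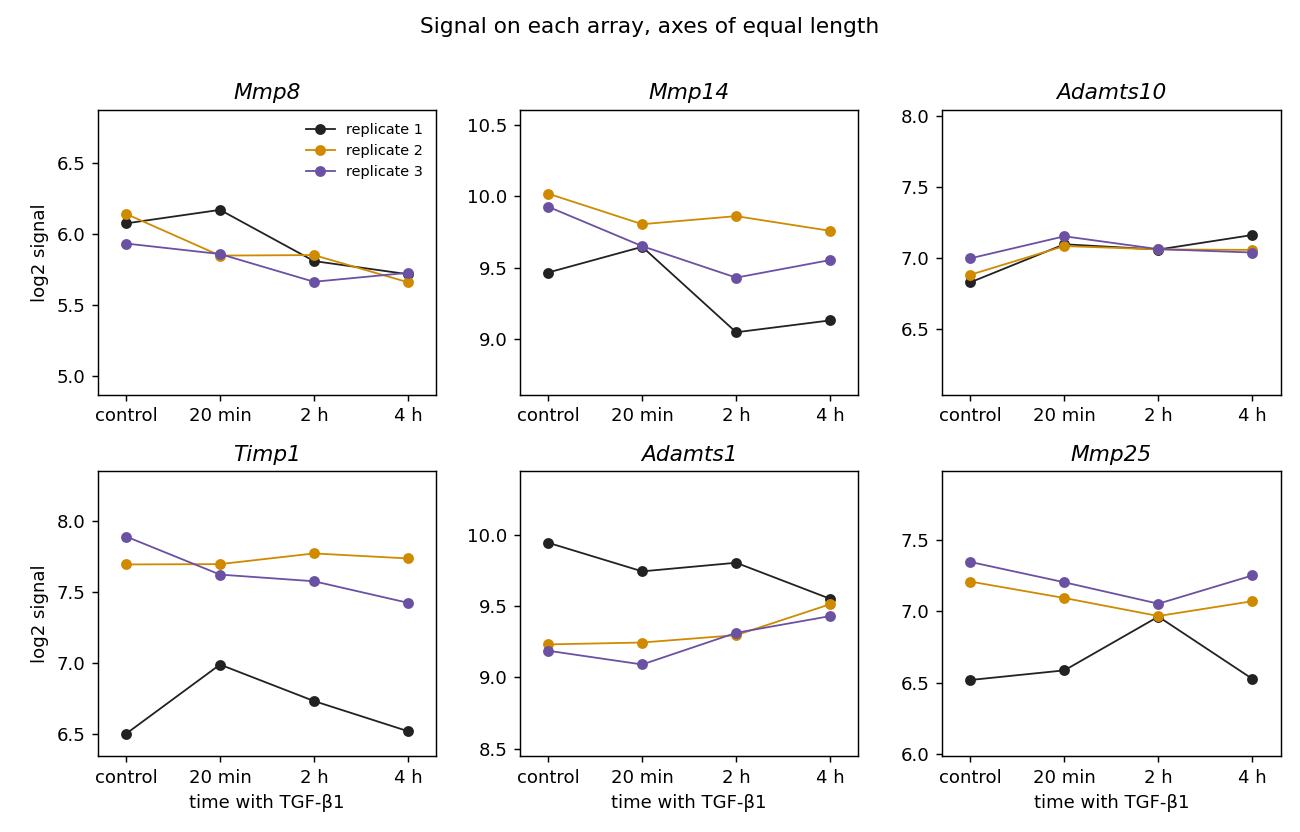
Log2 signal (vertical axes, all spanning 2 units) of 6 genes in the control and at 20 min, 2 h and 4 h with TGF-β1, 1 line per replicate. Mmp8 and Mmp14 lie lower at 2 h and 4 h than in the control of each replicate, the 9 treated arrays of Adamts10 sit above its controls, and in Timp1, Adamts1 and Mmp25 replicate 1 lies outside the range of the other two at every time.

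Some markers of other liver cells also differed between replicates. Of the 8 liver endothelial markers, 5 had all 4 arrays of replicate 1 above the other 8. Among all probe sets, 25.1% had replicate 1 outside the range of the other 8 in either direction. The mean over that list was 7.64 to 7.75 in replicate 1, 7.24 to 7.28 in replicate 2 and 7.23 to 7.29 in replicate 3. Among the 10 stellate cell or myofibroblast markers only the proteoglycan Dcn did so, at 9.89 against 7.80 and 7.68, while Acta2 and Des, which define activated and resident stellate cells, did not pass the test between replicates (limma, adjusted p = 0.38 and 0.532). Of the 8 hepatocyte markers, 3 had all 4 arrays of replicate 1 above the other 8. Of the 11 Kupffer cell or macrophage markers 0 lay apart in replicate 1. In that list 5 passed the F test between replicates, beside 34.8% of all probe sets. The part of these cells in the replicate differences of Timp1, Mmp25, Adamts1 and Adamts9 was not tested.

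**Figure D4:**
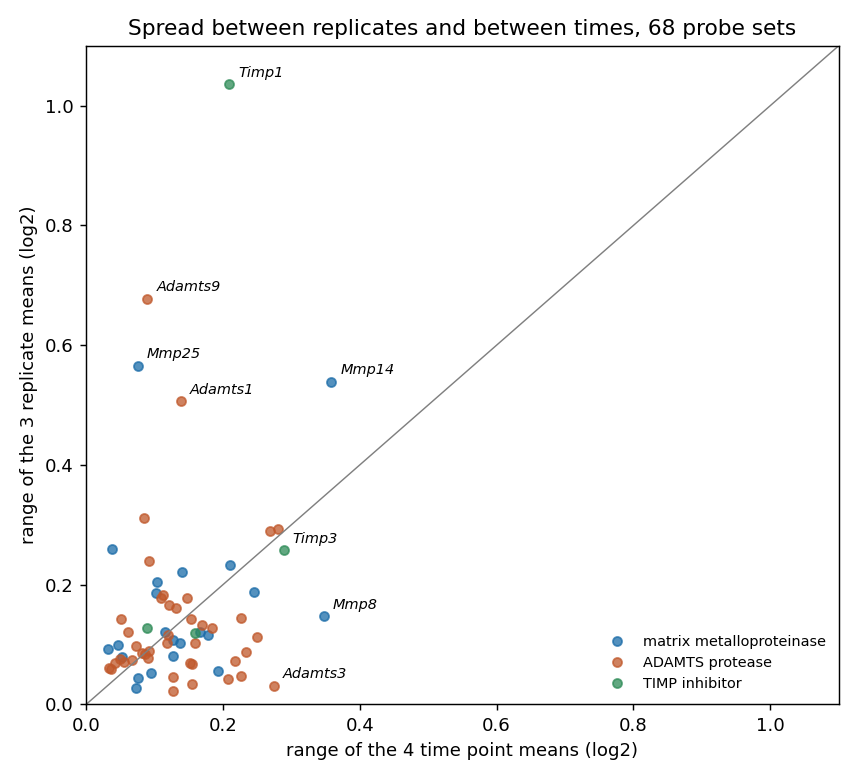
Range of the 3 replicate means (vertical axis, log2) against the range of the 4 time point means (horizontal axis, log2) for the 68 probe sets; the line marks equal ranges. Timp1, Adamts9, Mmp25, Mmp14 and Adamts1 stand out by replicate, and Mmp14 and Mmp8 by time. Of the 68 points 34 lie above the line, beside 61.5% of all probe sets.

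The list of proteins that switch matrix proteases on or hold them back had 19 measured genes, of which 2 rose, 2 fell and 15 were not called at 4 h, beside 1.57% of all probe sets called higher and 3.02% lower. Plaur, the receptor that focuses urokinase on the cell surface, read 8.59, 9.41 and 9.78 in the control and 9.30, 10.27 and 10.20 at 4 h. It was higher in 3 of 3 replicates, by 0.66 ± 0.12 (limma, adjusted p = 0.0107), although the groups overlapped, with replicate 1 the lowest at every time. Bmp1, the procollagen C-propeptidase, rose from 9.84, 9.86 and 10.08 to 10.05, 10.84 and 10.70, by 0.61 ± 0.12 with a slight overlap of the groups (limma, adjusted p = 0.0151). Plasminogen, Plg, the precursor of a protease that activates several MMPs, fell by 0.31 and Pzp, a broad protease inhibitor of the alpha-macroglobulin family, by 0.24 on the log2 scale (limma, adjusted p = 0.0246 and 0.0448). The urokinase gene Plau changed by 0.01 ± 0.08, and Furin, which activates membrane MMPs, by -0.18 ± 0.07 (limma, adjusted p = 0.971 and 0.18). The list's median change was 0.00, beside 0.02 over all genes.

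Of 19 measured matrix substrates of these enzymes, Sparc, a collagen-binding matricellular protein, rose, Dcn fell and 17 were not called at 4 h, beside 4.59% of all probe sets called in either direction. Sparc was 7.85 ± 0.48 (SD, n = 3) in the control and 8.21 ± 0.47 (SD, n = 3) at 4 h, higher in 3 of 3 replicates by 0.37 ± 0.09 (limma, adjusted p = 0.0381). Dcn read 10.32, 7.89 and 8.01 and 9.59, 7.70 and 7.48, lower in 3 of 3 replicates, and fell by 0.48 (limma, adjusted p = 0.0162). The fibrillar collagen genes Col1a1 and Col3a1 changed by 0.00 ± 0.09 and 0.06 ± 0.07, and fibronectin, Fn1, by 0.13 ± 0.06 (limma, adjusted p = 0.989, 0.736 and 0.332). Of 25 other analyses, Plaur passed in 18, Bmp1 and Dcn in 15, Plg in 14, Sparc in 11 and Pzp in 8. Of single arrays, the control and the 4 h array of replicate 2 were each needed for the call on Plaur (limma, adjusted p from 0.057 to 0.0577 without it), the control and 4 h arrays of replicates 2 and 3 for Bmp1 (adjusted p from 0.0537 to 0.074) and those of replicates 1 and 3 for Dcn (adjusted p from 0.0617 to 0.0727). Plg lost its call without the control of replicate 2 or 3 or any 4 h array (limma, adjusted p from 0.0716 to 0.102), and Sparc without those or replicate 2 or 3 at 20 min (limma, adjusted p from 0.0556 to 0.167). Pzp kept it only without replicate 1 at 20 min or replicate 2 at 2 h, and otherwise had an adjusted p from 0.0508 to 0.167 (limma). The fit without the replicate factor called 0 of the 6, with adjusted p from 0.442 to 0.996 (limma), and replicate 1 was the highest in Dcn and Sparc in the control and at 4 h.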

How the data were processed

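The deposited values were log2 signals that the authors made from the array scans with RMA in Affymetrix Power Tools (background correction, quantile normalization and probe set summary), whose versions are not given in the sources used here. The study's methods instead describe FARMS normalization, and they report a strong batch effect in the mouse hepatocyte chips. They adjusted for it with ComBat and do not name the chips of each batch. Whether the deposited values carry that adjustment was not tested. Their range was 3.84 to 15.22, array medians were 6.82 to 6.93, and 0 pairs of arrays were identical. Probe sets were named by the platform's probe table: 21789 of 35556 had 1 symbol and were tested, 1621 had several, and 12146 had no listed symbol. Only the tested ones entered the Benjamini-Hochberg adjustment. Groups and replicate numbers came from the sample titles. A 1 h time point was not analysed here.

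Values were fitted with limma 3.58.1 in R 4.3.3 (lmFit, eBayes), with time and replicate number as factors and 6 residual degrees of freedom, and tabulated with pandas 2.3.3 in Python 3.11.15. The script was tested on simulated data. The replicate factor follows the study's methods. Deviations of same-numbered arrays from their group means correlated at 0.77 to 0.88 in replicate 1, 0.56 to 0.79 in replicate 2 and 0.64 to 0.71 in replicate 3, so the numbers pair the samples, although the labels do not say what a number shares. Members and lists were chosen with earlier results of these data known. Named genes were those called in any test, the 10 largest changes at 4 h, the 8 highest and 3 lowest control signals, all TIMPs, the 3 widest spreads of replicate differences and, in related lists, called genes and the 2 largest changes. Other genes are named as members of a list, or for their values at earlier times or between replicates, after these were seen. A gene with several probe sets was represented by the one with the highest mean signal. Alternatives were the fit without or with a random replicate block, 2 groups only, a level filter, all probe sets, 2 further normalizations, a trended and robust prior, array weights, averaged probe sets, a stricter threshold, and leaving out each replicate or array. Promoter windows and gene coordinates were from RefSeq (GRCm38.p6).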

Additional observations from a re-analysis of the deposited data

Results flagged for a closer look

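Timp2 moved in opposite directions at the first and last time. At 20 min its signal was lower than the control in 3 of 3 replicates, with 6.32, 6.24 and 6.13 against 6.42, 6.26 and 6.34, a log2 change of -0.11 (limma, adjusted p = 0.672). At 4 h it was higher in 3 of 3 replicates, with 6.44, 6.31 and 6.42, a log2 change of 0.0457 (limma, adjusted p = 0.811). The difference between the changes was not tested, both share the control arrays, and neither passed the threshold.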

How the results depend on the processing

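The number of members called at 4 h was 1 in the analysis reported. It was 0 without the replicate block, with the replicate number as a random block, with only the 2 groups compared, among the brighter probe sets, those whose mean reached the median of all (where Mmp8 was not tested), over all probe sets of the table, and at an adjusted p under 0.01 with 2-fold change. It was 2 with array weights (Mmp8 and Mmp14), and 0 to 3 when a replicate or a single array was left out, with 3 (Mmp8, Mmp14 and Adamts9) without replicate 1 at 20 min. Over all probe sets the count at 4 h went from 1000 to 31 without the block, 225 with the random block, 352 with 2 groups, 371 over the whole table and 1799 with array weights, and to 32 to 1187 with arrays left out. The counts of members at 20 min, 2 h, between 2 h and 4 h and over the time course were 0 in every alternative that was run. Between replicates the count went from 11 to 4 among the brighter probe sets, where only 11 member probe sets were tested, so the 2 counts have different totals. Of all probe sets, 59.6% of the brighter ones were called between replicates, beside 34.8% in the analysis reported. With arrays left out the count of members between replicates was 0 to 12, 0 being without replicate 1. The cause was not tested.

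The log2 change at 4 h of the representative probe set of Adamts9 turned from -0.01 to 0.0176 after another quantile normalization and 0.0992 with array weights. With a replicate or an array left out, changes near 0 took both signs: Adamts9 -0.115 to 0.128, Adamts1 -0.075 to 0.263, Adamts5 -0.0122 to 0.072, Adamts7 -0.0287 to 0.0544, Mmp3 -0.0154 to 0.0755, Mmp11 -0.0765 to 0.206, Timp1 -0.268 to 0.0303, Timp2 -0.0053 to 0.083, Timp3 -0.152 to 0.0745 and Adam10 -0.196 to 0.0055. Of the 68 probe sets 11 reached the median level of all, so dim signal limits Mmp8 and most other members.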

Other observations

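Relatives outside the 3 families were measured on the same arrays. Of 7 ADAMTS-like proteins, which share the ancillary domains of ADAMTS enzymes but lack the protease, 0 were called at 4 h, beside 4.59% of all tested probe sets. The median log2 change was 0.11 against 0.02 over all genes, but only 1 of the 7, Adamtsl1, was higher in 3 of 3 replicates. Adamtsl5, at the median, differed by 0.395, -0.063 and -0.005 in replicates 1 to 3. Adamtsl1 read 6.32, 6.24 and 6.23 in the control and 6.61, 6.48 and 6.42 at 4 h, a change of 0.24 ± 0.07 (limma, adjusted p = 0.0693). Adamtsl2, a fibrillin-binding protein, read 6.39, 6.51 and 6.76 and 6.88, 6.58 and 6.72, a change of 0.17 ± 0.10 (limma, adjusted p = 0.442).

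Of 11 ADAM genes, the membrane-bound proteases that shed cell surface proteins and their inactive relatives, 0 were called at 4 h. Among all tested probe sets 4.59% were called, so 0 of 11 does not set this list apart. The median change was 0.03, against 0.02 over all genes. Adam23, which lacks protease activity, changed by -0.23 ± 0.08 and the sheddase Adam10 by -0.09 ± 0.08 (limma, adjusted p = 0.152 and 0.63).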
